A study of Mus musculus with 9 samples.

Results

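The Toll-like receptors are the family of pattern recognition receptors through which macrophages sense microbial lipids, proteins and nucleic acids. The genes described are the 9 receptors Tlr1, Tlr2, Tlr4, Tlr5, Tlr6, Tlr7, Tlr8, Tlr9 and Tlr13 and their shared adaptor Myd88. They were taken by symbol from the table of read counts, where each of the 10 had 1 row among 53465 genes, and all 10 were among the 11950 genes that passed the filter on low counts. RNA was sequenced from 9 libraries of bone marrow-derived macrophages (BMDMs), which were grown from the marrow of male wild-type C57BL/6 mice (substrain J in the study's methods) in serum-containing medium to which 50 ng/ml CSF1 was added. Untreated BMDMs (UNX) made up 3 libraries, 3 received medium conditioned by adventitial fibroblasts of control calves (CO-CM), and 3 received medium conditioned by fibroblasts of calves with hypoxia-induced pulmonary hypertension (PH-CM). The fibroblasts are bovine and the macrophages murine, each kind of medium was a pool over several fibroblast populations, and the time of treatment is given as 16 h in one label, 24 h in another and as a further value in the study's methods. The 3 libraries of a group are therefore repeats of the macrophage treatment and not separate calves. None of the 9 libraries received fibroblast medium without conditioning. In comparisons with UNX, effects of the medium itself and of fibroblast products therefore cannot be told apart.

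Each receptor is a membrane protein with a leucine-rich ectodomain that binds the ligand and a cytoplasmic TIR domain that recruits adaptors. TLR2 pairs with TLR1 or TLR6 for bacterial lipoproteins, TLR4 binds lipopolysaccharide together with MD-2 and CD14, and TLR5 binds flagellin, all at the cell surface. TLR7, TLR8, TLR9 and TLR13 lie in endosomes and bind nucleic acids, and the chaperone UNC93B1 carries them there. MyD88 links all of these receptors to the IRAK kinases and to NF-kB, and RNA levels of the receptors are themselves known to change when macrophages are activated.

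The libraries held between 62017933 and 84314201 counted reads, and all 7 macrophage markers examined passed the filter on low counts. The summed macrophage markers lay between 11480 and 12330 CPM (counts scaled to the total of the library) in UNX, between 18840 and 19780 in CO-CM and between 20730 and 22400 in PH-CM. Most of each macrophage sum was Lyz2, with means of 7251 CPM in UNX, 12814 in CO-CM and 15204 in PH-CM. The summed levels of neutrophil, dendritic, and B and T cell markers stayed at or under 4.315 CPM in all 9 libraries, and the neutrophil marker Ly6g had no read in any of them. Of 6 monocyte markers, 5 were tested and 3 were called higher in PH-CM than in CO-CM, beside 12.2% of all genes tested. Ccr2 and Plac8 were called in no comparison. The summed levels of the 6 monocyte markers were 21.3 to 35.3 CPM in UNX, 21.3 to 41.0 in CO-CM and 151 to 258 in PH-CM. Most of the PH-CM sum was Vcan (137 CPM), while the defining monocyte marker Ly6c2 had a mean of at most 0.157 CPM in any group. Fibroblast markers summed to 194 to 245 CPM in UNX, 262 to 314 in CO-CM and 244 to 331 in PH-CM. The part of these monocyte and fibroblast levels in the values of the receptors was not tested, and in bulk RNA fewer cells that express a gene and less of its RNA per cell cannot be told apart.

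Conditioned medium of either kind moved most of the 10 genes, as it did most of all genes tested. PH-CM moved the 10 genes over a wider range than CO-CM did. A gene was called when its false discovery rate (FDR) in the edgeR fit, taken over all genes tested, was 0.05 or lower and it changed by 1.2-fold or more. Errors after a log2 fold change are SE of that fit. In PH-CM vs. UNX, 6 genes were higher (Tlr2, Tlr4, Tlr5, Tlr6, Tlr8 and Tlr9) and 2 lower (Tlr1 and Tlr13), beside 63.0% of all tested genes called, 31.3% higher and 31.7% lower. In CO-CM vs. UNX, 4 were higher (Tlr2, Tlr6, Tlr8 and Tlr9) and 3 lower (Tlr1, Tlr4 and Tlr5), beside 57.0% of all genes, 28.0% higher and 28.9% lower. In PH-CM vs. CO-CM, 4 were higher (Tlr2, Tlr4, Tlr5 and Myd88) and 1 lower (Tlr13), beside 27.1% of all genes, 12.2% higher and 15.0% lower. The first 2 comparisons share the UNX libraries.

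The libraries of the 2 groups did not overlap for 10 of the 10 genes in PH-CM vs. UNX, where this held for 77.7% of all genes. The same was seen for 9 genes in CO-CM vs. UNX (72.0% of all genes) and for 7 in PH-CM vs. CO-CM (50.2%). The median size of the log2 fold change over the 10 genes was 0.76, 0.65 and 0.37 in the comparisons in that order, and over all genes tested it was 0.43, 0.36 and 0.17. The plot of log2 fold changes shows that the genes fell into different patterns. Tlr8, Tlr9 and Tlr6 rose with either medium and were not called between the media in the fit without pairing. With the replicate number as a block in the fit, Tlr9 was called higher in PH-CM than in CO-CM. Tlr2 rose with both media and more with PH-CM. Tlr4 and Tlr5 each fell with CO-CM and rose with PH-CM, and Tlr13 fell with PH-CM.

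**Figure D1:**
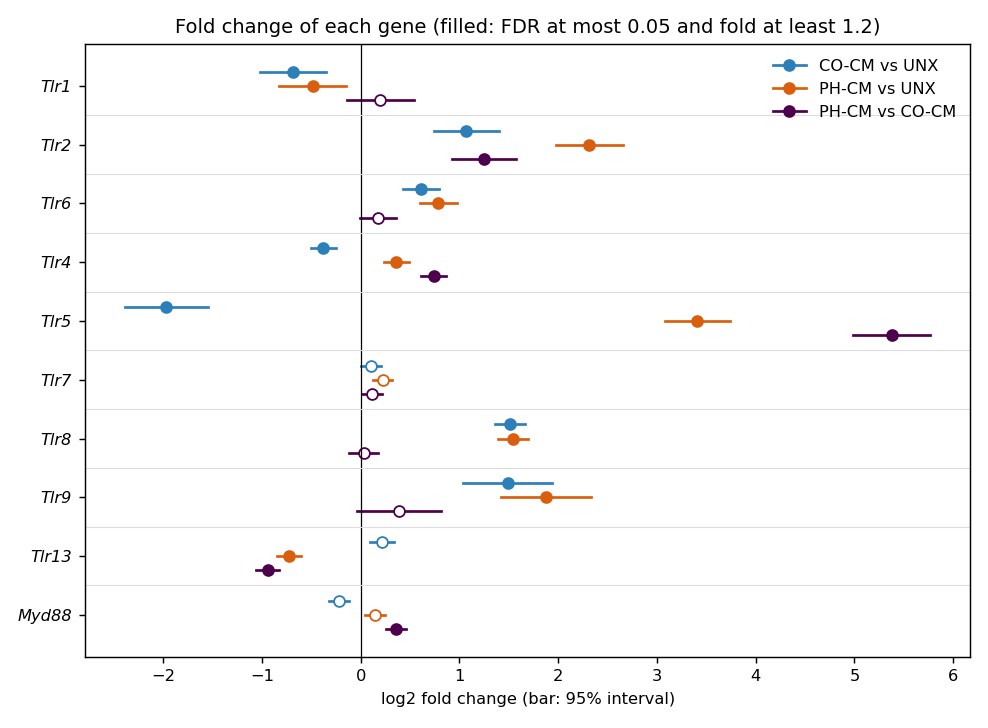
Log2 fold change of each gene in the 3 comparisons (horizontal axis), with bars for 95% intervals and filled points for genes called. Tlr5 spans the widest range, from -1.97 in CO-CM vs. UNX to 5.38 in PH-CM vs. CO-CM, and the points of Tlr7 lie nearest to 0 as a set.

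The bases before the start sites of the genes with the largest changes are shown for orientation, since the members moved in groups. They are from RefSeq on GRCm38.p6, read 5' to 3' on the strand of the gene. Of the 10 genes, 8 had windows of 250 bases before a RefSeq start site, 10 windows in all, and Tlr4 and Tlr7 were not matched. Bases inside the gene as GENCODE draws it are left out, and capitals mark matches to 7 short motifs searched on both strands.
Tlr5, chr1:182954538-182954787, plus strand: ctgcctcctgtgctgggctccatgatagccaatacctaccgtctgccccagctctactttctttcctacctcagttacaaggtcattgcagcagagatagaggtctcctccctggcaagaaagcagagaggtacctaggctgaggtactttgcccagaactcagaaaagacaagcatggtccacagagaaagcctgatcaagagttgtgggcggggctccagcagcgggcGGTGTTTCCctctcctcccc
Tlr2, chr3:83841768-83841858, minus strand: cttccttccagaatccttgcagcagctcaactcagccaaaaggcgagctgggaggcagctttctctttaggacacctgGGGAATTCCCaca
Tlr9, chr9:106222348-106222597, plus strand: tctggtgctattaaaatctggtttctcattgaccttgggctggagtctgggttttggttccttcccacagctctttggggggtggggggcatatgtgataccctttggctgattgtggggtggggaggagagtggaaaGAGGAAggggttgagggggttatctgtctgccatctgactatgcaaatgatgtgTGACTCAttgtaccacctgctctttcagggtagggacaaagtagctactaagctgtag
Tlr8, chrX:167264330-167264579, minus strand: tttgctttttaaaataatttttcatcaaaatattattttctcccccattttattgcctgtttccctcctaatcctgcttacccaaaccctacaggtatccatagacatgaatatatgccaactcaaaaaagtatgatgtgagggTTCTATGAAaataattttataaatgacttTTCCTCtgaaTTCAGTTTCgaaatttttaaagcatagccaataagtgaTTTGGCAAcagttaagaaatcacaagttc
Tlr13, chrX:106143025-106143203, plus strand: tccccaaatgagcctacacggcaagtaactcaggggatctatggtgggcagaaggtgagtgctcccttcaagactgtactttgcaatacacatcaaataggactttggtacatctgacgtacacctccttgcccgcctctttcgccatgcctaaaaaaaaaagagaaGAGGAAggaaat
The motifs were AP-1 (TGANTCA, in 6.75% of 32851 windows of 250 bases), STAT (TTCNNNGAA, 7.02%), NF-kB (GGNNNTTCC, 15.7%), ISRE (GAAANNGAA, 7.13%), PU.1 (GAGGAA, 23.3%), C/EBP (TTGCNNAA, 9.56%) and the hypoxia response core (ACGTG, 16.6%). The stretches shown for Tlr2 (91 bases) and Tlr13 (179 bases) are shorter than these windows. The Tlr5 window held the NF-kB letters at position -20 from the RefSeq start site. The Tlr2 window held them at position -172 and, on the reverse strand, at position -171, as overlapping matches in 1 run of capitals. Tlr9 held AP-1 at position -58 and PU.1 at position -112, and Tlr13 held PU.1 at position -83. Tlr8 held STAT at position -106 and, on the reverse strand, PU.1 at position -77, ISRE at position -67 and C/EBP at position -29. These matches are letters in a window and not sites shown to be bound, and apart from the pair in Tlr2 none in these windows overlapped another.

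Tlr5, the flagellin receptor (ENSMUSG00000079164, chr1:182954788-182976044, plus strand), was the gene with the widest range. Its level was 2.28, 2.80 and 2.54 CPM in the UNX libraries, 0.497, 0.539 and 0.8996 CPM in CO-CM, and 24.5, 28.6 and 27.9 CPM in PH-CM. All 3 CO-CM libraries thus lay under, and all 3 PH-CM libraries far over, every untreated library. The log2 fold change was 5.38 ± 0.18 (SE) in PH-CM vs. CO-CM, a 41.5-fold difference (edgeR FDR 2.57e-08), which ranked 8 by size among the 11950 genes. Against UNX it was 3.41 ± 0.15 with PH-CM (FDR 1.45e-08) and fell by 1.97 ± 0.19 with CO-CM (FDR 6.10e-06). The CO-CM value rested on 134 reads over the 3 libraries, and the highest library was replicate 3, with 64 reads. Mates of a pair were taken to be counted apart, so the number of sequenced fragments behind this value is smaller.

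Per length, Tlr5 remained a minor receptor in spite of this range. Its mean was 0.545 RPKM (reads scaled to exon length and library total) in UNX, 0.132 in CO-CM and 5.56 in PH-CM, where it overlapped the level of Tlr1. Relative to the RPKM of Tlr4 in the same library, it lay between 0.0224 and 0.0282 in UNX, between 0.00609 and 0.0127 in CO-CM and between 0.191 and 0.229 in PH-CM. No stretch of 150 bases of its transcripts, the length of a read, was found in the transcripts of another gene.

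Tlr2, the common partner in lipoprotein recognition (ENSMUSG00000027995, chr3:83836272-83841767, minus strand), rose in 2 steps. Its level was 52.2, 33.8 and 34.8 CPM in UNX, 92.2, 87.6 and 73.0 CPM in CO-CM, and 199.0, 202.7 and 199.0 CPM in PH-CM. The 3 groups were separate, with UNX replicate 1 above the other untreated libraries and the PH-CM libraries within 4 CPM of each other. The log2 fold change was 2.32 ± 0.15 in PH-CM vs. UNX (5.0-fold, edgeR FDR 2.72e-07), 1.07 ± 0.15 in CO-CM vs. UNX (FDR 9.19e-05) and 1.25 ± 0.15 in PH-CM vs. CO-CM (2.38-fold, FDR 0.000104).

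The co-receptors Tlr1 and Tlr6 moved in opposite directions. Tlr1 (ENSMUSG00000044827, chr5:64924679-64933563, minus strand) was at 22.0, 31.6 and 26.1 CPM in UNX, 13.8, 18.3 and 17.3 CPM in CO-CM, and 15.8, 21.2 and 19.8 CPM in PH-CM. Every treated library lay under every untreated one, though PH-CM replicate 2 and UNX replicate 1 were close. It fell by 0.69 ± 0.15 on the log2 scale with CO-CM (edgeR FDR 0.00218) and by 0.49 ± 0.15 with PH-CM (FDR 0.0133). The call with PH-CM was lost without UNX replicate 2 (log2 fold change -0.36, FDR 0.0527) and without PH-CM replicate 1 (-0.37, FDR 0.0545). Between the media Tlr1 was not called (0.20 ± 0.15, FDR 0.337), with a 95% interval from -0.14 to 0.54. Compared within each replicate number it was higher in PH-CM by 0.20, 0.21 and 0.19, and with the replicate number as a block in the fit the difference of 0.20 passed the FDR (0.0101) and not the fold change of 1.2.

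Tlr6 (ENSMUSG00000051498, chr5:64952031-64960097, minus strand) was at 15.6, 18.3 and 17.7 CPM in UNX, 23.8, 28.0 and 27.2 CPM in CO-CM, and 28.1, 31.5 and 29.6 CPM in PH-CM. It rose by 0.61 ± 0.08 with CO-CM (edgeR FDR 7.34e-05) and by 0.79 ± 0.08 with PH-CM (FDR 9.22e-06), and the interval between the media ran from -0.01 to 0.35. Within the replicate numbers Tlr6 was higher in PH-CM than in CO-CM by 0.12 to 0.24, and with the block this difference of 0.18 also passed the FDR (0.00725) and not the fold change. On the RPKM scale the ratio of Tlr1 to Tlr6 was 1.71 ± 0.19 in UNX, 0.695 ± 0.044 in CO-CM and 0.708 ± 0.069 in PH-CM (SD, n = 3). Tlr1 was thus the more abundant co-receptor in every untreated library and the less abundant one in every treated library. The ratio of Tlr2 to Tlr1 was 1.77 ± 0.76 in UNX, 5.80 ± 1.44 in CO-CM and 11.9 ± 1.8 in PH-CM (SD, n = 3).

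Tlr1 and Tlr6 are neighbours on chromosome 5 and related in sequence, and a read that lies wholly in a stretch they share cannot be placed by its own letters. Of the read-length windows of 150 bases, 139 of 3232 in Tlr1 (4.30%) and 139 of 3602 in Tlr6 (3.86%) were found in the other gene. Their coding sequences, of 2385 and 2418 bases, were identical at 75.6% of aligned positions. The longest run without a difference was 229 bases, at chr5:64925537-64925765 in Tlr1 and chr5:64953828-64954056 in Tlr6, both coding and on the minus strand of GRCm38, and it is shown because it is where the 2 counts are least certain.
Tlr1 and Tlr6, shared coding run: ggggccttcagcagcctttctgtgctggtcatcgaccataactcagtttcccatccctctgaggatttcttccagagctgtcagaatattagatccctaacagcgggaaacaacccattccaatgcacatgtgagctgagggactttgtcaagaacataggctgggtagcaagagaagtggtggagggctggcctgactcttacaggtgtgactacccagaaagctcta
The opposite directions were seen in 2 genes that share this stretch, and how reads from it entered the 2 counts was not tested.

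Tlr4, the lipopolysaccharide receptor (ENSMUSG00000039005, chr4:66827584-66930284, plus strand), moved down with CO-CM and up with PH-CM, at a smaller size than Tlr5. Its level was 118, 115 and 115 CPM in UNX, 94.6, 90.7 and 82.5 CPM in CO-CM, and 149, 156 and 141 CPM in PH-CM. The 3 groups did not overlap. The log2 fold change was 0.36 ± 0.06 in PH-CM vs. UNX (edgeR FDR 0.000193), -0.38 ± 0.06 in CO-CM vs. UNX (FDR 0.000157) and 0.74 ± 0.06 in PH-CM vs. CO-CM (1.67-fold, FDR 6.14e-06).

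Cd14, which hands lipopolysaccharide to TLR4, had the same signs. It was at 335, 287 and 305 CPM in UNX, 158, 189 and 176 CPM in CO-CM, and 735, 889.6 and 870.1 CPM in PH-CM. It rose by 1.43 ± 0.09 on the log2 scale with PH-CM, fell by 0.82 ± 0.09 with CO-CM, and differed by 2.25 ± 0.09 between the media (edgeR FDR 2.32e-07, 1.77e-05 and 1.09e-07). Ly96, which encodes the TLR4 partner MD-2, was instead higher with both media, by 0.99 ± 0.07 with PH-CM (FDR 3.25e-07) and 0.70 ± 0.07 with CO-CM (FDR 6.23e-06), and by 0.29 ± 0.07 between them (FDR 0.00538). The last call was lost with upper-quartile factors and without PH-CM replicate 1, where the value went down to 0.26. Cd180, a receptor-like relative of TLR4, was at 348 ± 17 CPM in UNX, 251 ± 26 in CO-CM and 115 ± 5 in PH-CM (SD, n = 3).

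**Figure D2:**
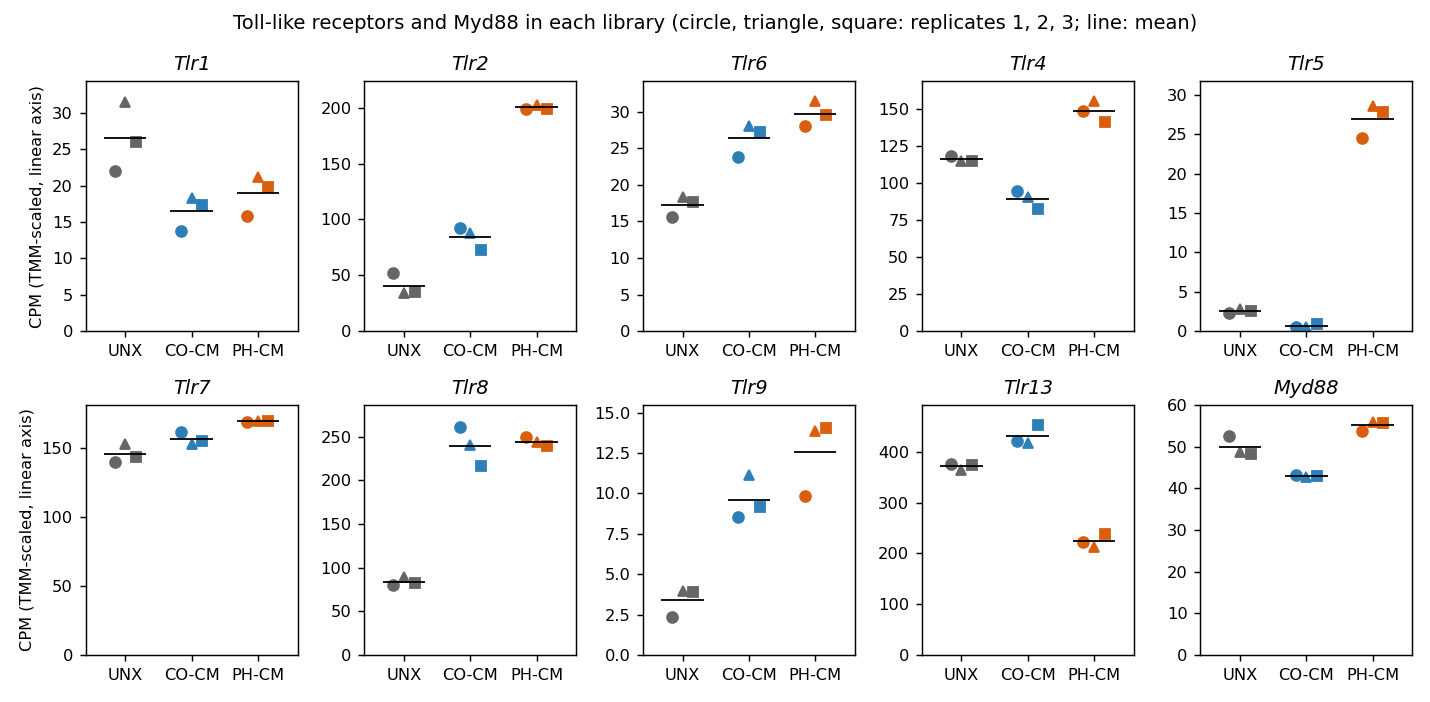
Level of each gene in each library as CPM scaled by TMM (vertical axes, linear from 0), with circles, triangles and squares for replicates 1, 2 and 3 of UNX, CO-CM and PH-CM and a line at the mean of each group. The PH-CM libraries stand over all others for Tlr5 (24.5 to 28.6 CPM) and Tlr2 (199 to 203 CPM) and under all others for Tlr13 (212 to 238 CPM).

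Among the endosomal receptors Tlr8 and Tlr9 rose with both media, Tlr13 fell with PH-CM, and Tlr7 was called in no comparison. Tlr13, the receptor of mice for bacterial ribosomal RNA (ENSMUSG00000033777, chrX:106143204-106160493, plus strand), was at 376, 364 and 374 CPM in UNX, 421, 418 and 453 CPM in CO-CM, and 222, 212 and 238 CPM in PH-CM. It was the most abundant receptor in UNX and CO-CM, and each PH-CM library lay well under all other libraries. It fell by 0.73 ± 0.05 on the log2 scale in PH-CM vs. UNX (edgeR FDR 6.34e-07) and by 0.94 ± 0.05 in PH-CM vs. CO-CM (FDR 8.74e-07). In CO-CM vs. UNX the log2 fold change was 0.21 ± 0.05 (1.16-fold, FDR 0.00445), under the fold change of 1.2 needed for a call.

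Tlr8, a receptor related to the RNA sensor TLR7 (ENSMUSG00000040522, chrX:167242696-167264329, minus strand), rose with both media, and the difference between them was not called. Its level was 80.6, 89.0 and 82.0 CPM in UNX, 261, 241 and 217 CPM in CO-CM, and 249.6, 244 and 239 CPM in PH-CM. The treated groups overlapped and both lay over UNX. The log2 fold change was 1.51 ± 0.07 with CO-CM (edgeR FDR 3.37e-08) and 1.54 ± 0.07 with PH-CM (FDR 1.61e-08), and the difference of 0.03 between the media had a 95% interval from -0.12 to 0.18 (FDR 0.775).

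Its neighbour on chromosome X, Tlr7, which binds single-stranded RNA (ENSMUSG00000044583, chrX:167304929-167330558, minus strand), was at 140.1, 153 and 144 CPM in UNX, 162, 153 and 155 CPM in CO-CM, and 169.46, 169.85 and 169.95 CPM in PH-CM. These values span little, and Tlr7 was called in none of the 3 comparisons. In PH-CM vs. UNX its log2 fold change of 0.22 ± 0.04 (1.17-fold) passed the FDR (0.00110) and not the fold change of 1.2. In CO-CM vs. UNX the value was 0.11 ± 0.04 (FDR 0.0555) and in PH-CM vs. CO-CM 0.11 ± 0.04 (FDR 0.0676), and with the block both passed the FDR (0.0305 and 0.0326) and not the fold change. The RPKM ratio of Tlr8 to Tlr7 was 0.656 ± 0.006 in UNX, 1.74 ± 0.13 in CO-CM and 1.64 ± 0.04 in PH-CM (SD, n = 3), so the order of these neighbouring genes turned with either medium.

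Tlr9, the receptor for unmethylated CpG DNA (ENSMUSG00000045322, chr9:106222598-106226883, plus strand), was a low-level gene that rose with both media. It was at 2.38, 3.98 and 3.86 CPM in UNX, 8.51, 11.2 and 9.14 CPM in CO-CM, and 9.82, 13.8 and 14.0 CPM in PH-CM. Replicate 1 was the lowest library in each group, and PH-CM replicate 1 lay within the range of CO-CM. The log2 fold change was 1.49 ± 0.20 with CO-CM (edgeR FDR 8.46e-05) and 1.87 ± 0.20 with PH-CM (FDR 1.22e-05). Between the media it was 0.39 ± 0.19 (FDR 0.140, not called), and with the replicate number as a block in the fit it was 0.38 (FDR 0.00832, called). Compared within each replicate number, Tlr9 was higher in PH-CM by 0.21, 0.31 and 0.62 on the log2 scale. Without the filter on low counts the difference was also called (0.38, FDR 0.0353).

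Myd88, the adaptor that these receptors share (ENSMUSG00000032508, chr9:119335934-119341411, minus strand), varied least but for Tlr7. It was at 52.6, 48.9 and 48.2 CPM in UNX, 43.2, 42.7 and 42.9 CPM in CO-CM, and 53.7, 56.0 and 55.6 CPM in PH-CM. The groups did not overlap, with CO-CM lowest. Only the difference between the media was called, at 0.36 ± 0.05 on the log2 scale (1.28-fold, edgeR FDR 0.000178). The values against UNX, 0.14 ± 0.05 with PH-CM (FDR 0.0154) and -0.22 ± 0.05 with CO-CM (FDR 0.00173), stayed under the fold change of 1.2. Its exons overlap those of Acaa1a on the other strand over 290 bases, and the counting is described without a strand setting, so reads from that stretch cannot be assigned to either gene.

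The makeup of receptor RNA changed along with its sum. Over the 9 receptors the summed RPKM was 204 ± 4 in UNX, 264 ± 11 in CO-CM and 277 ± 2 in PH-CM (SD, n = 3), and the libraries of the 2 media overlapped. Tlr13 made up 45.8% ± 1.0 of this sum in UNX, 39.1% ± 2.5 in CO-CM and 19.5% ± 1.1 in PH-CM. The share of Tlr8 was 11.8% ± 0.6, 24.8% ± 1.7 and 24.3% ± 0.6 in the same order, and that of Tlr2 was 6.74% ± 1.69, 10.4% ± 1.0 and 23.7% ± 0.2. Tlr5 remained the smallest share in UNX (0.267%) and CO-CM (0.0502%) and reached 2.01% in PH-CM.

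**Figure D3:**
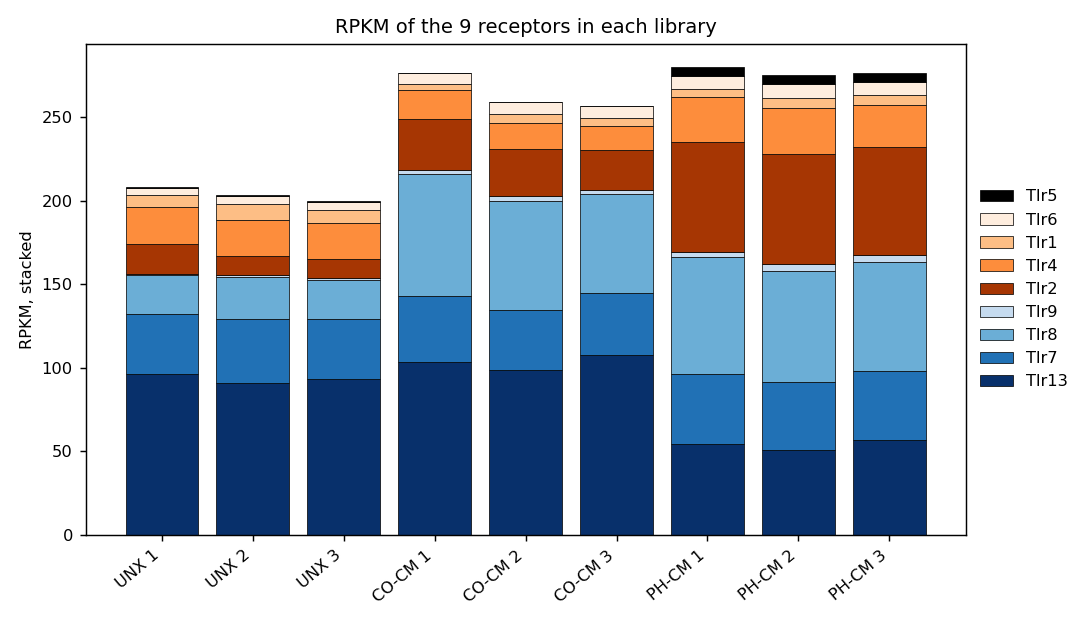
Deposited RPKM of the 9 receptors stacked for each library (vertical axis, from 0), with endosomal receptors in blue, surface receptors in orange and brown and Tlr5 in black. The Tlr13 segment shrinks from 91 to 96 RPKM in UNX to 51 to 57 in PH-CM, while the Tlr2 segment grows from 11 to 18 RPKM to 65 to 66.

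By RPKM, the order in UNX was Tlr13, Tlr7, Tlr8, Tlr4, Myd88, Tlr2, Tlr1, Tlr6, Tlr9 and Tlr5, and only Tlr4 and Myd88 overlapped among neighbours in this order. In CO-CM, Tlr8 (65.5 ± 7.0 RPKM) stood second after Tlr13 (103 ± 5 RPKM), Tlr2 followed Tlr7, and only Myd88 and Tlr4 overlapped. In PH-CM, Tlr8 (67.3 ± 2.3 RPKM) and Tlr2 (65.6 ± 0.8 RPKM) stood first and overlapped, followed by Tlr13 (54.2 ± 3.2 RPKM) and Tlr7 (41.1 ± 0.5 RPKM). The other overlap in PH-CM was that of Tlr1 and Tlr5. Tlr9 was last in PH-CM (3.56 ± 0.63 RPKM).

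The genes whose pattern over the 9 libraries was most like that of Tlr5, Tlr2 and Tlr9, the 3 genes with the widest range of group means, were found by the root mean square (RMS) difference of centred log2 CPM. For Tlr5 they were Gm38079 (0.29), Ppbp (0.52) and Gm16587 (0.69). Gm38079 is a lincRNA gene on the same strand that begins 231 bases beyond the annotated end of Tlr5 (chr1:182976276-182976429). Its mean was 0.143 CPM in UNX, 0.0291 in CO-CM and 1.93 in PH-CM. Like Ppbp and Gm16587, it had a mean under 1 CPM in UNX and in CO-CM and so passed the filter on low counts through PH-CM, the group where it was high, and the likeness of these 3 genes to Tlr5 is a description at few reads. For Tlr2 they were 1700030J22Rik (0.14), Tsku (0.19) and Atrnl1 (0.20), and for Tlr9 they were Tmem82 (0.13), Igsf6 (0.13) and Rilpl2 (0.14). Apart from Gm38079, none of these lay near the receptor gene it resembled.

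Other genes of the pathway, from ligand transfer to the kinases and their inhibitors, moved in both directions. Of 50 other genes of the pathway, 46 were tested. Tlr11, Tlr12, Lbp and Sarm1 did not pass the filter, and Tlr12 had no read in any library. In PH-CM vs. UNX, 21 were called higher and 8 lower, in CO-CM vs. UNX 18 and 7, and in PH-CM vs. CO-CM 10 and 9. These calls were 63.0%, 54.3% and 41.3% of the 46 genes, beside 63.0%, 57.0% and 27.1% of all genes tested, so against UNX the share lay near that of all genes. The median log2 fold change over them was 0.22, 0.20 and 0.05 in that order, and over all genes tested it lay between -0.01 and 0.01. Tlr3, the double-stranded RNA receptor that signals through TRIF rather than MyD88, was called in PH-CM vs. UNX, at 0.41 ± 0.06 against UNX (edgeR FDR 0.000106), and its difference between the media, 0.20 ± 0.06 (FDR 0.0204), was under the fold change of 1.2. Among the 3 larger lists, accessory proteins had the highest share called in each comparison (85.7%, 78.6% and 64.3% in PH-CM vs. UNX, CO-CM vs. UNX and PH-CM vs. CO-CM) and the adaptors and kinases the lowest (38.9%, 38.9% and 27.8%). Beside the shares over all genes, the accessory proteins lay above in each comparison, and the adaptors and kinases lay below in the comparisons with UNX and close to them between the media. The lists were chosen with earlier results of these data known, so these shares are a description only.

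Of the 14 co-receptors and accessory proteins tested, 8 were higher and 4 lower in PH-CM vs. UNX, 7 and 4 in CO-CM vs. UNX, and 5 and 4 in PH-CM vs. CO-CM. Besides Cd14, the largest increases were those of the endosomal proteases that cut the nucleic acid receptors. Ctsl was at 1421.5 ± 68.0 CPM in UNX, 2385 ± 261 in CO-CM and 5245 ± 447 in PH-CM (SD, n = 3). It rose by 1.88 ± 0.09 with PH-CM and 0.75 ± 0.09 with CO-CM on the log2 scale against UNX (edgeR FDR 3.41e-08 and 3.52e-05) and differed by 1.14 ± 0.09 between the media (FDR 7.97e-06). Ctss rose by 1.10 ± 0.11 with CO-CM (FDR 7.76e-06) and by 1.07 ± 0.11 with PH-CM (FDR 7.42e-06). Unc93b1, the chaperone of the endosomal receptors, rose by 0.57 ± 0.08 and 0.77 ± 0.08 (FDR 7.01e-05 and 5.81e-06).

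Besides that of Cd14 with CO-CM (0.82 ± 0.09), the largest decreases in this list were those of Cd180 and Hmgb1. Cd180 fell by 1.599 ± 0.08 with PH-CM against UNX (edgeR FDR 2.52e-08) and by 1.13 ± 0.08 against CO-CM (FDR 2.28e-06). Against UNX, Hmgb1 fell by 0.97 ± 0.05 with PH-CM and by 0.82 ± 0.05 with CO-CM (FDR 6.83e-08 and 3.36e-07). Hmgb1 has many processed copies in the genome, so its count is uncertain. Slc15a4, a transporter of the endosomal membrane that TLR7 and TLR9 signaling needs, was higher in CO-CM than in UNX by 0.63 ± 0.06 (FDR 5.94e-06) and was not called in PH-CM vs. UNX (0.03 ± 0.06, FDR 0.626), so that PH-CM vs. CO-CM gave -0.60 ± 0.06 (FDR 3.65e-05).

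Of the 18 adaptors, kinases and factors tested, 6 were higher and 1 lower in PH-CM vs. UNX, 5 and 2 in CO-CM vs. UNX, and 3 and 2 in PH-CM vs. CO-CM. Ticam2, the TRAM adaptor that leads from TLR4 to TRIF, rose by 1.204 ± 0.10 with PH-CM (edgeR FDR 1.61e-06) and by 0.70 ± 0.10 with CO-CM (FDR 0.000115), and by 0.50 ± 0.10 between them (FDR 0.00253). Irak2, a kinase of the MyD88 complex, was at 39.5 ± 1.0 CPM in UNX, 92.3 ± 2.3 in CO-CM and 69.0 ± 2.9 in PH-CM (SD, n = 3), so it was highest with CO-CM (log2 fold change 1.22 ± 0.05, FDR 1.23e-08). In PH-CM it was higher than in UNX by 0.81 ± 0.05 (FDR 1.08e-07) and fell by 0.42 ± 0.05 relative to CO-CM (FDR 6.40e-05).

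Irf7, which drives type I interferon genes downstream of TLR7 and TLR9, was at 26.8, 25.5 and 28.8 CPM in UNX, 8.89, 14.4 and 15.9 CPM in CO-CM, and 23.5, 21.0 and 26.9 CPM in PH-CM. It fell by 1.05 ± 0.18 with CO-CM (edgeR FDR 0.000353) and was higher in PH-CM than in CO-CM by 0.87 ± 0.18 (FDR 0.00321), while PH-CM vs. UNX gave -0.18 ± 0.17 (FDR 0.353). Pik3ap1, an adaptor to phosphoinositide 3-kinase, fell by 0.64 ± 0.05 with PH-CM (FDR 5.60e-07) and by 0.51 ± 0.05 with CO-CM (FDR 4.14e-06). Ticam1, which encodes TRIF, was higher in CO-CM than in UNX by 0.41 ± 0.06 (FDR 0.000154) and was not called in PH-CM vs. UNX (0.03 ± 0.06, FDR 0.667), and PH-CM vs. CO-CM gave -0.38 ± 0.06 (FDR 0.000806). Traf6, Traf3, Tab2, Tab3, Map3k7, Tbk1, Irak1, Irf3 and Irf5 were called in no comparison.

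Of the 13 negative regulators tested, 6 were higher and 3 lower in PH-CM vs. UNX, 6 and 1 in CO-CM vs. UNX, and 2 and 3 in PH-CM vs. CO-CM. These calls were 69.2%, 53.8% and 38.5% of the list, beside 63.0%, 57.0% and 27.1% of all genes tested, so against UNX the share lay near that of all genes. The largest increases in this list were those of Peli2 and Peli3, ubiquitin ligases that act on the IRAK complex and are not only inhibitory. Peli2 was at 6.80 ± 0.72 CPM in UNX, 40.4 ± 3.2 in CO-CM and 58.0 ± 2.9 in PH-CM (SD, n = 3). It rose by 3.09 ± 0.09 with PH-CM (edgeR FDR 1.32e-09) and 2.57 ± 0.09 with CO-CM (FDR 7.89e-09), and differed by 0.52 ± 0.08 between the media (FDR 0.000577). Peli3 rose by 1.94 ± 0.12 and 1.79 ± 0.12 (FDR 2.10e-07 and 5.67e-07). Irak3, an IRAK without kinase activity, was higher in PH-CM than in CO-CM by 0.50 ± 0.06 (FDR 0.000179).

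Atf3, a repressor of inflammatory genes, was at 111, 141 and 124 CPM in UNX, 198, 267 and 253 CPM in CO-CM, and 83.6, 99.5 and 88.3 CPM in PH-CM. It was higher with CO-CM by 0.93 ± 0.12 (edgeR FDR 5.26e-05) and lower with PH-CM, where it fell by 0.47 ± 0.12 against UNX (FDR 0.00428) and by 1.404 ± 0.12 against CO-CM (FDR 1.27e-05), a pattern with signs opposite to those of Tlr4 and Tlr5. Tnip1, a partner of A20, rose with both media, by 0.81 ± 0.06 with CO-CM (FDR 9.35e-07) and by 0.44 ± 0.06 with PH-CM (FDR 6.08e-05), and its level was lower with PH-CM than with CO-CM (-0.37 ± 0.06, FDR 0.000790). Socs1, a gene of few reads here, fell by 1.52 ± 0.31 with CO-CM (FDR 0.00126) and by 0.91 ± 0.30 with PH-CM (FDR 0.0168), a call that was lost without UNX replicate 2 and without PH-CM replicate 2 (FDR up to 0.0657). Tollip, Sigirr and Cyld were called in no comparison.

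**Figure D4:**
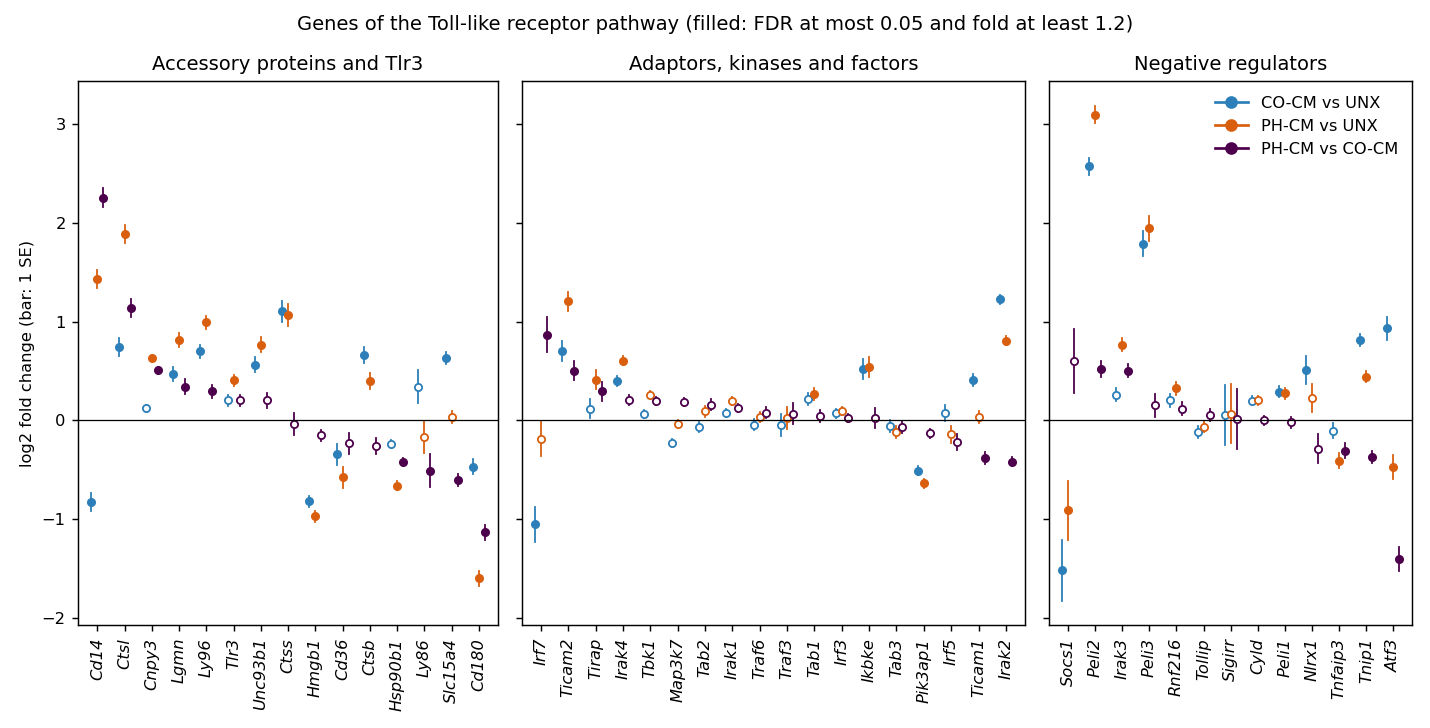
Log2 fold change of 46 other genes of the pathway in the 3 comparisons (vertical axis, bars for 1 SE), ordered within each panel by PH-CM vs. CO-CM and filled where called. Cd14 (2.25) stands at one end of the accessory proteins and Cd180 (-1.13) at the other, and most adaptors and kinases lie near 0.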

How the data were processed

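RNA-Seq of 9 libraries was used, grouped and numbered by their titles, and each group held 3 libraries. The authors checked reads with FastQC 0.11.5, trimmed them with AfterQC, aligned them with STAR 2.6.0c to GRCm38 and assigned them to exons of each gene with featureCounts 1.6.2. The raw counts they deposited are whole numbers for each gene, with no normalization. The deposited RPKM values are these counts scaled by the authors to exon length and counted reads. Tables of the authors' own comparisons (log2 fold change, mean log2 CPM, p-value and FDR) were not used. Between 81.4% and 83.8% of counts under 20 in a library were even, so mates of a pair were taken to be counted apart.

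The tests used edgeR 4.0.16 in R 4.3.3. A gene was kept when 3 or more libraries had over 1 CPM of it. Kept genes were scaled by TMM and fitted together in one quasi-likelihood model with a mean per group. FDR is the Benjamini-Hochberg value over all 11950 genes, and SE and intervals are from that fit. CPM in the text is TMM-scaled, and levels of different genes are compared by RPKM. Scripts were tested on simulated data. Positions, exons and the 150-base windows of transcripts are from a GENCODE annotation of GRCm38, and bases before start sites from RefSeq (GRCm38.p6). Proteins were not analysed here.

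The members and the gene lists were chosen with earlier results of these data known. All members are named. From each pathway list the text names the called genes with the largest fold change in each direction, up to 2 in each comparison, and genes called in no comparison by name. Ly96 and Unc93b1 were added after their values were seen, as partners of the receptors. Where a symbol had several rows, the row with most reads was kept, which applied to Hmgb1 (13 rows) and Itgam (2 rows).

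The replicate numbers 1 to 3 are shared by the groups, and nothing in the labels ties a number to a culture or day, so p-values measure the spread between these libraries. Deviations from group means correlated over genes in all 9 same-numbered pairs (r from 0.276 to 0.484), which met the criterion for pairing. Values in the text are from the fit without pairing unless a block is named. The paired fit, which adds the number as a replicate block, was an alternative, with other tests (edgeR exact test, DESeq2 1.42.0), scalings, filters, thresholds and each library left out in turn. No 2 libraries of a group agreed within sampling noise (chi-square per gene at least 10.61).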

Additional observations from a re-analysis of the deposited data

How the results depend on the processing

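Each log2 fold change of the 10 genes was recomputed under 19 alternatives, and 562 of these values kept direction and call. Tlr8 in PH-CM vs. CO-CM, 0.03 and not called, turned to -0.009 with upper-quartile factors, and its values with 1 library left out ran from -0.0397 to 0.0943. Other changes of call were those of Tlr13 in CO-CM vs. UNX, called with upper-quartile factors (0.28), and of Myd88 in CO-CM vs. UNX, called with library size alone (-0.29). The paired fit, with a replicate block, called Tlr9 in PH-CM vs. CO-CM (0.38) and changed no other call of the 10 genes, and without the filter Tlr9 was also called (0.38). Of 73 calls among pathway genes, 64 were kept in every alternative, no fold change turned its sign, and the block added 3 calls (Ly86 in CO-CM vs. UNX, Ctsb and Nlrx1 in PH-CM vs. CO-CM) and ended 0. Scaling moved the share of higher calls among all called genes by under 10 percentage points, from 49.2% to 56.3% with upper-quartile factors and 41.4% with library size alone in CO-CM vs. UNX. With 1 library left out, the number of the 10 genes called lower in PH-CM vs. UNX ran from 1 to 2, and it was 1 without UNX replicate 2 and without PH-CM replicate 1.

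Counts followed the fold change threshold by construction. With no threshold, 16 pathway genes were called higher in PH-CM vs. CO-CM. With a threshold of 2, pathway genes called higher and lower were 6 and 1 in PH-CM vs. UNX, 4 and 2 in CO-CM vs. UNX, and 2 and 2 in PH-CM vs. CO-CM. Of the 10 genes, 0 were then called lower in PH-CM vs. UNX, 1 lower in CO-CM vs. UNX, 2 higher in PH-CM vs. CO-CM and 0 lower there. Those still called higher against UNX were Tlr2, Tlr5, Tlr8 and Tlr9 with PH-CM and Tlr2, Tlr8 and Tlr9 with CO-CM. The shares of all genes called at these thresholds are not given here, so these counts describe only the effect of the threshold. Of 30 mean levels per length, 2 moved by more than 1 SD when TMM-scaled reads per kilobase replaced the deposited RPKM. Depth limits Tlr5 in CO-CM most, at 134 reads in 3 libraries. The cause of the other changes was not tested.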
